A study of Mus musculus with 6 samples.

Results

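A group of 10 genes of the fibroblast growth factor (FGF) family, 7 ligands (Fgf5, Fgf7, Fgf9, Fgf10, Fgf18, Fgf20 and Fgf22) and 3 receptors (Fgfr1, Fgfr2 and Fgfr3), was followed in mouse wound scars. They were taken from a list of gene symbols, and each of the 10 had 1 array row, among 20255 genes that the platform annotation names. RNA of whole skin from the scars was hybridised to Affymetrix exon arrays, which are read here at the level of the whole gene. There were 6 biopsies in 2 groups of 3, high regeneration (many new follicles in the scar) and low regeneration (described by the design text as none). Each group had 1 biopsy from day 4, 1 from day 6 and 1 from day 9, counted from wound closure, and the 2 biopsies of a day form a pair. The sources used here give no strain, genotype, sex or age and do not state whether any biopsies share an animal.

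FGFs are secreted proteins that bind receptor tyrosine kinases on nearby cells together with heparan sulfate and switch on the Ras and MAP kinase cascade. In skin, several ligands are made on one side of the border between epithelium and mesenchyme and act on the other. Fgfr1 and Fgfr2 are each spliced into forms with different ligands: Fgf7, Fgf10 and Fgf22 act mainly through the epithelial form of Fgfr2. The values used here are 1 per gene, so these splice forms were not separated.

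All levels are log2 units as deposited, so a difference of 1 is a doubling. Array medians lay between 6.04 and 6.10. All 10 genes passed a filter that left out the dimmest 25% of genes (mean under 5.60), which left 15191 for testing. The groups were compared by limma, with the day as a block, and p-values were adjusted over the 15191 genes by the method of Benjamini and Hochberg. A gene was called at an adjusted p under 0.05. Markers of the skin were present: of the keratinocyte list all 11 genes were measured, with a mean level of 10.56 to 10.88 in the 6 biopsies, and of the dermal fibroblast list all 10, with 10.37 to 10.58. There were 2 biopsies that stood apart. In the low-regeneration biopsy of day 9 Xist, the transcript of the inactive X chromosome, stood at 12.77 against 5.75 to 7.30 in the others, and the Y-linked gene Eif2s3y stood at 4.36 against 7.10 to 7.26, so sex and group cannot be separated at day 9. In the high-regeneration biopsy of day 4 the median hair shaft gene lay 2.61 above its own mean over the biopsies and the median inner root sheath gene 2.33. The median skeletal muscle gene lay 0.94 above and the median adipocyte gene 0.78. Follicle genes were also apart in the low-regeneration biopsy of day 9. There the median hair shaft gene stood at -1.51 from its own mean and the median inner root sheath gene at -2.25.

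The first question was whether FGF ligands and receptors were at different levels in the high- and low-regeneration scars. Of the 10 genes, 4 ligands (Fgf5, Fgf7, Fgf9 and Fgf10) had a higher level in the high-regeneration biopsy of all 3 pairs, and for Fgf5, Fgf7 and Fgf10 the groups did not overlap. These 4 had the dimmest array rows of the 10, with means within 0.77 of the filter. Fgf10 passed it only through the high group (mean 5.43 in the low group, under the limit of 5.60), so its place in the counts here is a description and supports nothing. The receptors Fgfr1, Fgfr2 and Fgfr3 and the ligands Fgf18, Fgf20 and Fgf22 had mean differences between -0.068 and 0.070 log2 units, and their pairs differed in sign. By limma 0 of the 10 were called (lowest adjusted p = 0.342, for Fgf7), against 8 of the 15191 genes, or 0.0527%. At an unadjusted p under 0.05 Fgf7 was higher, as was Fgf10 with that limit, where 4.89% of all genes were higher at that level and 5.17% lower. Over all genes 15.8% were higher in 3 of 3 pairs, 18.3% were lower in 3 of 3 (0 of the 10 FGF genes), and in 5.08% the high group lay wholly above the low. The median difference was 0.038 over the 10 genes and -0.0028 over all genes tested.

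**Figure D1:**
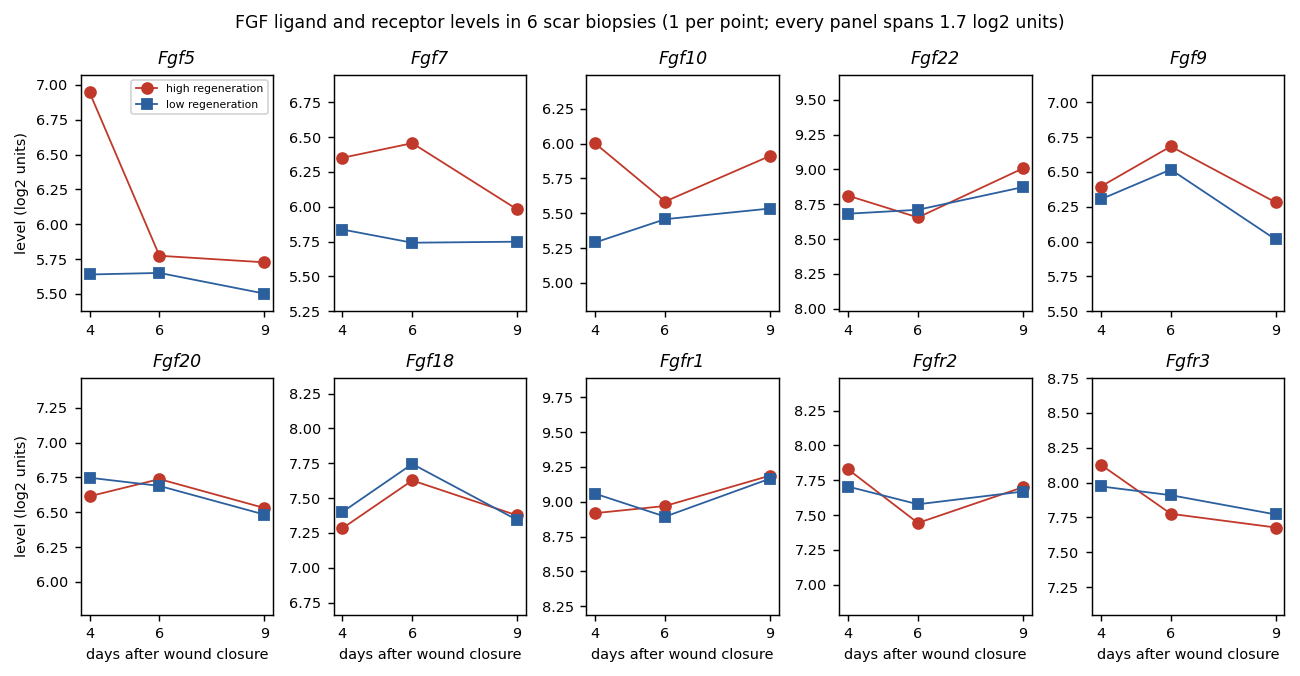
Levels of the 10 FGF genes (log2 units, vertical axis) against days after wound closure, with 1 point per biopsy, red circles for high and blue squares for low regeneration. In the panels of Fgf5, Fgf7 and Fgf10 all red points lie above all blue ones, whereas the lines of Fgf22, Fgf20, Fgf18, Fgfr1, Fgfr2 and Fgfr3 cross.

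Fgf7, known as keratinocyte growth factor, is made by mesenchymal cells such as dermal fibroblasts and the dermal papilla and acts on epithelium. Its levels were 6.35, 6.46 and 5.98 in the high-regeneration biopsies of days 4, 6 and 9, and 5.84, 5.74 and 5.75 in the low. All 3 high biopsies lay above all 3 low ones, by at least 0.14, and the low biopsies lay close together. The mean difference was 0.49 ± 0.24 (SD of 3 pairs), or 1.40-fold, with a 95% confidence interval of 0.21 to 0.77 from limma (unadjusted p = 0.00685, adjusted p = 0.342). The pairs differed by 0.51, 0.71 and 0.23 at days 4, 6 and 9.

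Fgf10, a ligand of the same subfamily that mesenchyme sends to budding epithelium in the embryo, showed a difference of similar size. Its levels were 6.00, 5.58 and 5.91 in the high-regeneration biopsies and 5.29, 5.46 and 5.53 in the low. The high group lay above the low, though at day 6 the high biopsy was only 0.050 above the brightest low one. The mean difference was 0.41 ± 0.29 (SD of 3 pairs), or 1.32-fold, with an interval of 0.083 to 0.73 (limma, unadjusted p = 0.0234, adjusted p = 0.429), and leaving out day 4 gave 0.25. Fgf10 was dim. Its mean of 5.63 passed the filter by 0.033, and all 3 low biopsies and 1 high biopsy lay below the filter's limit, so it passed through its level in the high group.

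Whole tissue was measured, and fewer cells of a type cannot be told apart from less RNA per cell. Markers of the dermal papilla, where both ligands are made, differed in both directions. Of 7 measured other than these ligands, 5 were higher in all 3 pairs (15.8% of all genes) and 1 was lower in all 3 (18.3%), with a median difference of 0.26 and 0 called. Wif1, a secreted Wnt inhibitor of the papilla, differed by 1.08 ± 0.55, Lef1 by 0.45 ± 0.35, Sox2 by 0.36 ± 0.15, Corin by 0.26 ± 0.07 and Rspo3 by 0.23 ± 0.25. Crabp1 differed by -0.50 ± 0.39 and Alpl by -0.24 ± 0.47 (SD of 3 pairs for all). The mean level of the 7 genes was 7.40 to 7.56 in the high group and 7.18 to 7.31 in the low. Dermal fibroblast genes also went both ways, with a median difference of -0.022 and 0 of 10 called. In all 3 pairs 2 were higher (15.8% of all genes), Twist2 at 0.44 ± 0.08 and Thy1 at 0.22 ± 0.18. Another 2 were lower in all 3 (18.3%), Lum at -0.30 ± 0.17 and Col1a2 at -0.098 ± 0.048 (SD of 3 pairs). The part of papilla cells in the Fgf7 and Fgf10 values was not tested.

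The promoters of Fgf7 and Fgf10, ligands of the same subfamily, are shown as a description. Their levels did not run together within the high group: at day 6 Fgf7 was at its highest (6.46) and Fgf10 at its lowest (5.58). Each sequence is the 250 bases before the annotated transcript start, from RefSeq on build GRCm38.p6, written 5′ to 3′, and 8 of the 10 genes were matched in that table. Capitals mark matches, on both strands, to 6 motifs: AP-1 (TGANTCA), CRE (TGACGTCA), the TATA box (TATAAA), TCF/LEF (CTTTGAT), the CCAAT box (CCAAT) and the GC box (GGGCGG).
Fgf7, chr2:126034408-126034657, plus strand: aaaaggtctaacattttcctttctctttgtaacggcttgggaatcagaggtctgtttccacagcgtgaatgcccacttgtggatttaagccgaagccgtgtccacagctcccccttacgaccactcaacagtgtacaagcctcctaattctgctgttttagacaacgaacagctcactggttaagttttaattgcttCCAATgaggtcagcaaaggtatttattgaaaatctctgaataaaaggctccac
Fgf10, chr13:118714449-118714698, plus strand: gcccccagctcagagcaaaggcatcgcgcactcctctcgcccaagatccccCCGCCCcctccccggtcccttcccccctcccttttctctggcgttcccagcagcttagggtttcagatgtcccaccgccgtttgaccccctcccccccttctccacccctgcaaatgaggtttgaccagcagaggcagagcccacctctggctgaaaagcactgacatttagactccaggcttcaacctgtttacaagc
The Fgf7 window held 1 match, a CCAAT box starting 53 bases before the start site, and was 43.6% G and C. The Fgf10 window held 1 match, a GC box on the reverse strand at 199 bases before the start, and was 61.2% G and C. Of 32851 promoter windows of this length, 33.8% held a CCAAT box and 32.7% a GC box, so both matches are common ones. The other motifs were in 6.75% (AP-1), 1.55% (CRE), 12.4% (TATA box) and 3.21% (TCF/LEF) of all windows, and none of these letters occurred in either window.

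Fgf22, the third ligand of this subfamily and one reported in follicle epithelium, was at 8.81, 8.66 and 9.01 in the high-regeneration biopsies and 8.68, 8.71 and 8.87 in the low. The groups overlapped, and the day 6 pair had the opposite sign to the others. The mean difference was 0.070 ± 0.11 (SD of 3 pairs), with an interval of -0.12 to 0.25 (limma, adjusted p = 0.772). Whether Fgf22 differed less than Fgf7 and Fgf10 was not tested.

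Fgf5, the signal made in the follicle that ends hair growth and whose loss gives mice long hair, had the widest range of the 10 genes. Its levels were 6.95, 5.77 and 5.73 in the high-regeneration biopsies and 5.64, 5.65 and 5.50 in the low. The groups did not overlap, but 1 biopsy, high at day 4, stood 1.17 above the next. The mean difference was 0.55 ± 0.66 (SD of 3 pairs), with an interval of -0.10 to 1.20 (limma, unadjusted p = 0.0814, adjusted p = 0.543), and leaving out day 4 gave 0.17. In that biopsy the mean level of 6 measured hair shaft genes was 10.19 against 6.23 to 7.79 in the other biopsies, and that of 9 inner root sheath genes was 11.00 against 6.92 to 8.94. Of the hair shaft genes 3 of 6 were higher in all 3 pairs (15.8% of all genes) and 0 were called. They were the hair cadherin gene Dsg4 at 1.77 ± 1.19, Krt35 at 1.62 ± 1.25 and Krt36 at 0.58 ± 0.10 (SD of 3 pairs). Krt31, Krt33b and Krt34 had the opposite sign at day 6, at -0.65, -0.48 and -0.57. The part of hair-bearing follicles in the Fgf5 value was not tested.
Fgf5, chr5:98253934-98254183, plus strand: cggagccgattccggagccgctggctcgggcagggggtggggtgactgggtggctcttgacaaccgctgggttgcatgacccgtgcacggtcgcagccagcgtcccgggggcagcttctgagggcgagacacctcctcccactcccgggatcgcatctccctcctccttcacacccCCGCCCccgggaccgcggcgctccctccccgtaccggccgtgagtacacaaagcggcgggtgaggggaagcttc
The Fgf5 window is shown for comparison with those of Fgf7 and Fgf10. It held 1 of the 6 motifs, a GC box on the reverse strand 74 bases before the start, and 70.8% of its bases were G or C, above the 61.2% below which 75% of all windows lie.

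**Figure D2:**
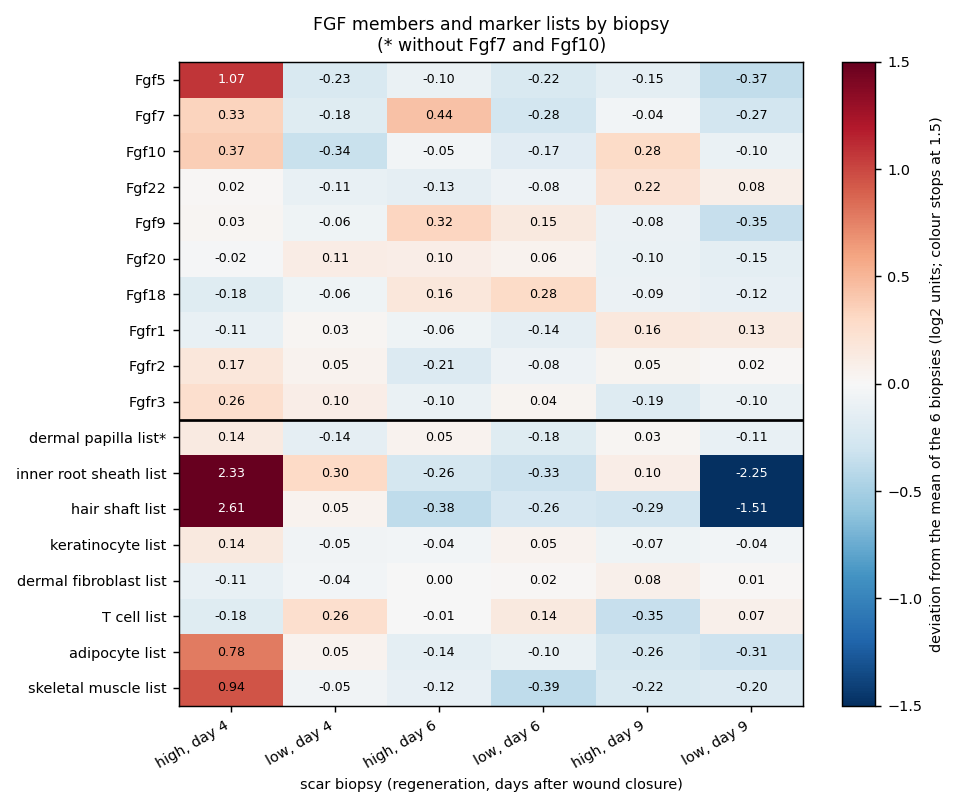
Deviation of each FGF gene, and of the median gene of each marker list, from its mean over the 6 biopsies (log2 units, colour and printed value), with biopsies in columns by day and group. Fgf5 and the hair shaft, inner root sheath, adipocyte and skeletal muscle lists are high together in the high-regeneration biopsy of day 4 (1.07 for Fgf5, 2.61 for hair shaft).

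Fgf9 and Fgf20 belong to another subfamily, and both have been tied to new follicles in mice. Fgf9 made by gamma-delta T cells of wounded skin has been reported to promote follicle formation in scars, and Fgf20 is made by hair placodes and induces the dermal condensate beneath them. Fgf9 was at 6.40, 6.68 and 6.28 in the high-regeneration biopsies and 6.30, 6.52 and 6.02 in the low. Both biopsies of day 6 were above the rest and the groups overlapped, but within each day the high biopsy was the higher, by 0.091, 0.17 and 0.27. The mean difference of 0.17 ± 0.09 (SD of 3 pairs) had the smallest SD of the 4 ligands that were higher in every pair (limma, interval -0.00050 to 0.35, unadjusted p = 0.0504, adjusted p = 0.496). Of 8 measured T cell markers 7 were tested, and of these 4 were lower in all 3 pairs (18.3% of all genes), 0 were called, and the median was -0.32. The 4 were Cd3g at -0.82 ± 0.53, Il2rb at -0.65 ± 0.17, Cd3e at -0.47 ± 0.27 and Lat at -0.32 ± 0.17. Zap70 was at -0.15 ± 0.13, Cd7 at -0.023 ± 0.063 and Cd247 at 0.061 ± 0.083, and Cd3d, which was too dim to be tested, was higher in all 3 pairs at 0.63 ± 0.54 (SD of 3 pairs for all). These markers are shared by several kinds of T cell, and the gamma-delta genes Trdc and Trdv4 were not analysed here.
Fgf9, chr14:58072436-58072685, plus strand: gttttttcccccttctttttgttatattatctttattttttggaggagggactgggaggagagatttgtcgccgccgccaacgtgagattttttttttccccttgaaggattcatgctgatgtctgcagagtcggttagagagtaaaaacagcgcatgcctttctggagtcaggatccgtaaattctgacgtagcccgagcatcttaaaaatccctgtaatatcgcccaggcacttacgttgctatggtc
The Fgf9 window completes the 4 ligands with a higher level in all 3 pairs. It held none of the 6 motifs and was 44.8% G and C.

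Fgf20 was at 6.61, 6.74 and 6.53 in the high-regeneration biopsies and 6.75, 6.69 and 6.48 in the low. The groups overlapped throughout, with a mean difference of -0.012 ± 0.10 (SD of 3 pairs) and an interval of -0.20 to 0.17 (limma, adjusted p = 0.966). Fgf18, a ligand of resting follicles that holds them in their resting phase, was at 7.28, 7.63 and 7.38 in the high group and 7.40, 7.74 and 7.34 in the low. Its 2 highest biopsies were both of day 6, and the groups overlapped, with a mean difference of -0.068 ± 0.087 (SD of 3 pairs) and an interval of -0.24 to 0.11 (limma, adjusted p = 0.765).

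Levels of the receptors were close in the groups. Fgfr1, the main FGF receptor of mesenchyme, was at 8.92, 8.97 and 9.19 in the high-regeneration biopsies and 9.06, 8.89 and 9.17 in the low, with the 2 biopsies of day 9 highest. Its mean difference was -0.014 ± 0.11, with an interval of -0.20 to 0.17 (limma, adjusted p = 0.964). Fgfr2, whose epithelial form receives Fgf7 and Fgf10, was at 7.83, 7.44 and 7.70 in the high group and 7.70, 7.58 and 7.67 in the low. The high group held both the highest and the lowest biopsy, and the mean difference was 0.0069 ± 0.13, with an interval of -0.19 to 0.21 (limma, adjusted p = 0.983). Fgfr3, found in epidermis and known to restrain growth in cartilage, was at 8.13, 7.78 and 7.68 in the high group and 7.97, 7.91 and 7.77 in the low, a difference of -0.024 ± 0.16 with an interval of -0.24 to 0.19 (limma, adjusted p = 0.945; SD of 3 pairs in each case). These intervals leave room for a receptor difference of up to about 0.2 log2 units either way, and a p above the threshold does not show equal levels. Fgfr1 and Fgfr3 had mean differences of the opposite sign when single pairs were left out, as did Fgfr2 and Fgf20.

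**Figure D3:**
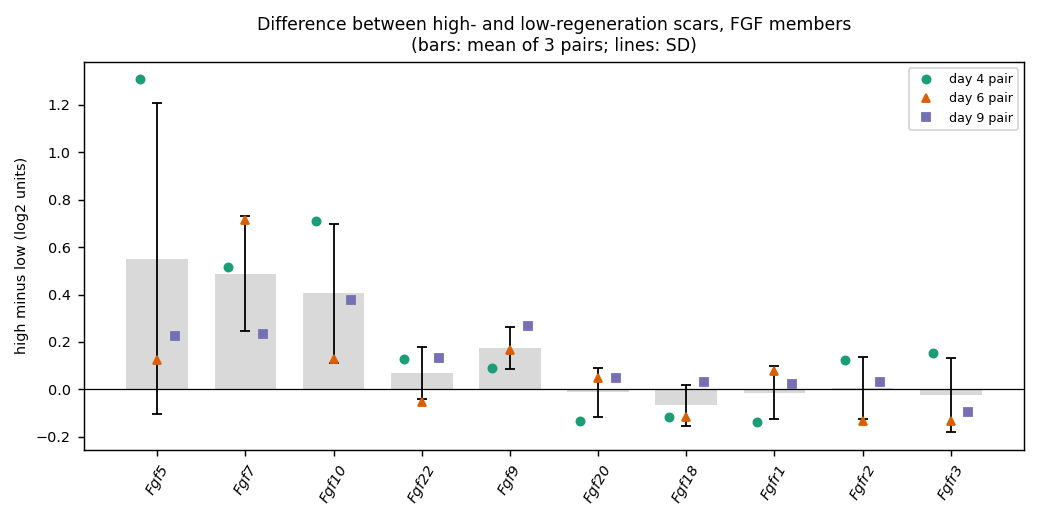
High minus low regeneration (log2 units, vertical axis) for the 10 FGF genes, with 1 symbol per day pair, a grey bar for the mean of 3 pairs and a line for the SD. Fgf5, Fgf7, Fgf10 and Fgf9 are above 0 in all 3 pairs, and the day 4 pair of Fgf5 lies apart at 1.31.

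The rest of the pathway was read from 7 lists with 78 genes, of which 68 were measured and 62 passed the filter. By limma 0 of the 62 were called (lowest adjusted p = 0.121), and the median difference was 0.057. At an unadjusted p under 0.05, 8 were higher (4.89% of all genes) and 3 lower (5.17%). Most of the 8 belonged to 1 list, the feedback and target genes of receptor signalling, with 6 of 14 higher at that level (4.89% of all genes). In this list 7 of 14 were higher in all 3 pairs (15.8%), in 6 the high group lay wholly above the low (5.08%), and the median was 0.22. The lists were chosen with earlier results of these data known, so these counts are a description and support nothing. Spry2 and Spry1 encode Sprouty proteins, which dampen receptor tyrosine kinase signalling, and Dusp6 encodes a phosphatase of ERK. FGF signalling induces all 3 genes, and so do other receptors of this class.

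Spry2 was at 8.98, 9.01 and 8.72 in the high-regeneration biopsies of days 4, 6 and 9 and at 8.27, 8.40 and 8.03 in the low. All high biopsies lay above all low ones, and the difference was 0.67 ± 0.05 (SD of 3 pairs), or 1.59-fold (limma, unadjusted p = 0.000142, adjusted p = 0.121). Spry1 was at 8.64, 8.87 and 8.76 against 8.14, 8.38 and 8.25, a difference of 0.50 ± 0.0095 that was nearly the same in each pair (limma, adjusted p = 0.159). Dusp6 was at 10.14, 10.16 and 9.98 against 9.72, 9.73 and 9.61, a difference of 0.41 ± 0.04 (limma, adjusted p = 0.206). Etv4 and Etv5, ETS transcription factors that FGF signalling induces, differed by 0.35 ± 0.14 and 0.41 ± 0.35, with Etv5 at 0.011 at day 9. Il17rd and Spred3, also inhibitors of the cascade, had differences of -0.10 ± 0.23 and -0.067 ± 0.036 (SD of 3 pairs), so the list did not move as one.

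**Figure D4:**
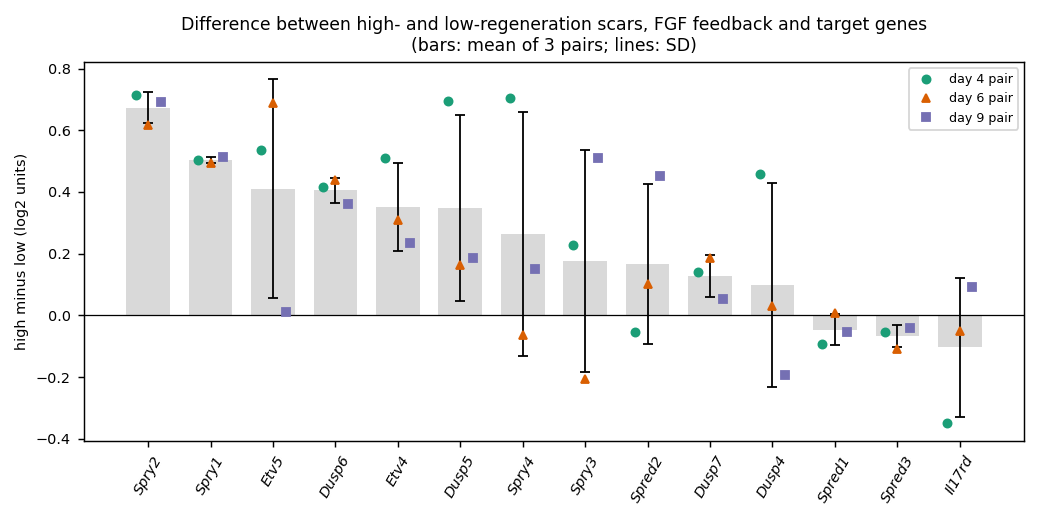
High minus low regeneration (log2 units, vertical axis) for 14 feedback and target genes, with 1 symbol per day pair, a grey bar for the mean and a line for the SD of 3 pairs. Spry2, Spry1 and Dusp6 have pairs close together, from 0.62 to 0.71, 0.49 to 0.51 and 0.36 to 0.44, and Spry4, Spry3 and Dusp4 have pairs of both signs.

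The other lists held fewer differences. Of 9 tested further ligands, 3 were higher in all 3 pairs (15.8% of all genes), Fgf6 at 0.17 ± 0.07, Fgf23 at 0.25 ± 0.23 and Fgf1 at 0.28 ± 0.33, and 1 was lower in all 3 (18.3%), Fgf17 at -0.16 ± 0.22. Fgf6 passed the filter only through the high group (mean 5.56 in the low group), so its place in this count supports nothing. Fgf23 was at 0.11 without the pair of day 4, and Fgf1 at 0.091 without that of day 9. Of 20 genes that make, carry or cut heparan sulfate, the cofactor of FGF binding, 0 were called, and the median was 0.026. At an unadjusted p under 0.05, 1 was higher (4.89% of all genes) and 2 were lower (5.17%). These were the core protein genes Gpc3 at 0.20 ± 0.03, Sdc3 at -0.37 ± 0.14 and Gpc1 at -0.25 ± 0.18. Flrt1, which encodes a membrane protein of a family that binds FGF receptors, was lower in all 3 pairs at -0.38 ± 0.14 (limma, adjusted p = 0.316). Of the 12 measured genes that link receptors to the MAP kinases 0 reached an unadjusted p under 0.05, with Plcg1 lowest in p at -0.083 ± 0.076, followed by Sos1 at -0.075 ± 0.087 and Ptpn11 at 0.074 ± 0.082. Fgfr4 differed by 0.063 ± 0.0057, Fgfrl1, a receptor without a kinase, by -0.041 ± 0.15, Fgfbp1, a carrier that frees ligands from matrix, by 0.17 ± 0.30, Flrt3 by 0.13 ± 0.32 and the intracellular Fgf14 by 0.053 ± 0.095 (SD of 3 pairs for all values).

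The next question was how the FGF genes changed from day 4 to day 9, as a linear slope with a term for the group. Biopsies of a date counted as independent here, and the effect of day cannot be separated from that of date. By limma 0 of the 10 were called, as were 0 of all genes (0%). At an unadjusted p under 0.05 there was 1, Fgfr3, with a negative slope, where 9.24% of all genes had a negative and 6.94% a positive slope at that level. Fgfr3 had -0.063 ± 0.021 log2 units per day (SE, limma, unadjusted p = 0.0227, adjusted p = 0.26) and was lower at day 9 than at day 4 by 0.45 in the high group and 0.20 in the low. Its slope was -0.039 without the high biopsy of day 4.

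Fgf5 had a slope of -0.13 ± 0.06 (SE, adjusted p = 0.365 in limma), but day 9 minus day 4 was -1.22 in the high group and -0.14 in the low, and without the high biopsy of day 4 the slope was -0.026. Fgf7 had -0.048 ± 0.026, Fgf9 -0.049 ± 0.035 and Fgf20 -0.038 ± 0.019, all with day 9 below day 4 in both groups. Single biopsies moved these slopes: Fgf7 was at -0.0066 without the high biopsy of day 9 and -0.076 without the low one. Fgf9 was at -0.084 without the high biopsy of day 4 and -0.013 without the low one of day 9, and Fgf20 at -0.058 and -0.022 in the same cases. Fgf22 had 0.042 ± 0.022 and Fgfr1 0.041 ± 0.021, with day 9 above day 4 in both groups. Without the high biopsy of day 9 they were 0.023 and 0.027, and without the low biopsy of day 4 Fgfr1 was at 0.065. Fgf10 (0.019 ± 0.032), Fgfr2 (-0.011 ± 0.028) and Fgf18 (-0.0053 ± 0.036) had slopes smaller than their errors (SE throughout). For Fgf9 and Fgf18 a straight line describes little of the course, since the highest biopsies of both were those of day 6.

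**Figure D5:**
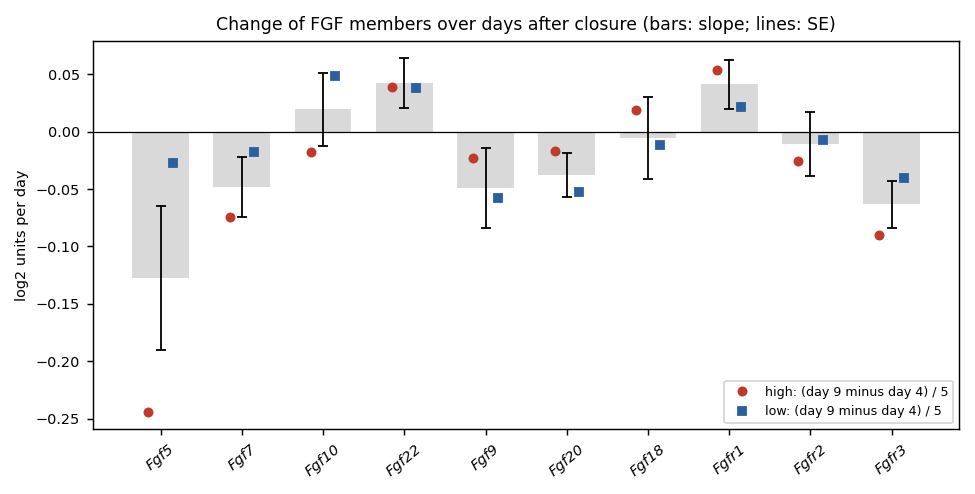
Slope of each FGF gene over days after wound closure (log2 units per day, grey bars, with lines for the SE), with symbols for the day 9 minus day 4 difference divided by the 5 days between, red circles for high and blue squares for low regeneration. Fgf5 has its red circle far below the others, and Fgfr3 lies below 0 in both groups.

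Whether slopes differed between the groups was tested as an interaction. Again 0 of the 10 and 0 of all genes (0%) were called, and 0 of the 10 reached an unadjusted p under 0.05, where 3.96% of all genes did. The lowest p of the 10 was for Fgf5, with a high minus low slope of -0.20 per day (limma, unadjusted p = 0.128, adjusted p = 0.988). Its direction rests on 1 biopsy: it was 0.013 without the high biopsy of day 4, and -0.56 without that of day 9. Among the pathway lists 0 of the 62 genes tested were called for the slope by limma (lowest adjusted p = 0.19). At an unadjusted p under 0.05, 5 had a positive slope (6.94% of all genes) and 4 a negative one (9.24%). The slopes given next are thus values that did not pass. Gpc3, a cell surface heparan sulfate carrier, had 0.083 ± 0.018 per day, Il17rd 0.12 ± 0.03, Flrt2 0.049 ± 0.017, Gpc6 0.063 ± 0.024 and Ext1 0.050 ± 0.020. Fgfr4 had -0.051 ± 0.016, Fgf6 -0.042 ± 0.016, Dusp5, a nuclear ERK phosphatase, -0.089 ± 0.029 and Spry3 -0.11 ± 0.04 (SE for all).

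The FGF genes differed in which other genes of the pathway they ran most like over the 6 biopsies, by Pearson's r of log2 levels among 71 others. These r values are descriptions over 6 biopsies of 3 dates, and with so few points a high r is easily met. Fgf7 was most like Dusp6 (r = 0.956), the ERK phosphatase described above, and Fgf10 most like Spry4 (r = 0.852). Fgf5 was most like Sdc4 (r = 0.994), but 1 biopsy weighs heavily in this value. In the high-regeneration biopsy of day 4 Fgf5 was at 6.95 and Sdc4 at 9.84, against at most 5.77 and 9.38 in the others. Fgf9 was most like Fgf1 (r = 0.900) and Fgf20 like Fgf4 (r = 0.886). Fgf18 was most like Grb2 (r = 0.953), Fgf22 like Sdc2 (r = 0.973), Fgfr1 like Gpc6 (r = 0.950), Fgfr2 like Gpc4 (r = 0.938) and Fgfr3 like Sdc1 (r = 0.943). Over all 15190 other genes tested, Pglyrp1, Sbk2 and Ddc were the most like Fgf9 (r = 0.994, 0.993 and 0.991), and Sstr2, Klhl40 and B3gnt7 the most like Fgfr2 (r = 0.989, 0.988 and 0.987).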

How the data were processed

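Levels of 6 scar biopsies were read from 1 deposited table of log2 values with 53145 rows. The log2 unit was read from the values (about 2 to 15 per array), as the labels leave it out. Per the submitters' processing notes, the authors used Affymetrix Expression Console and PLIER, with no version, role or order given; for build, background correction and filters the step is not given in the sources here. No further scaling was applied.

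Of the rows, 25466 had 1 gene symbol, 2299 several and 25380 none. Rows with 1 symbol gave 20255 genes, with the row of highest mean kept where a gene had more than 1, and the 10 FGF genes had 1 row each. The dimmest 25% of genes were left out, so 15191 were tested across all genes in two-sided tests by limma 3.58.1 under R 4.3.3, using lmFit and eBayes. Day was a block with 3 levels in the group comparison, because the design text gives the 2 samples of a pair 1 date; deviations from the group means correlated within a day at 0.500 (day 4), 0.112 (day 6) and 0.560 (day 9). The slope on day had the group as a covariate, and the difference in slope was their interaction. Residual degrees of freedom were 2, 3 and 2. P-values cover only the spread among these 6 samples, which may be partly technical, and the number of arrays limits precision. The fit of the group comparison was tested on simulated data, and those of the slope and the difference in slope were not.

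The FGF genes and all lists were chosen with earlier results of these data known. All 10 FGF genes were named. Of each pathway list every gene called would be named, and otherwise up to 3 of lowest unadjusted p in the group and slope fits; the gene most like each FGF gene, and the 3 over all genes for Fgf9 and Fgfr2, were named by Pearson's r. The other feedback genes and the marker genes named were chosen after their values were seen. Alternatives changed the filter, scaling, row choice, variance prior, day term, or the pairs and samples kept.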

Additional observations from a re-analysis of the deposited data

How the results depend on the processing

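With each alternative 0 of the 10 FGF genes and 0 of the pathway genes were called in the comparison of groups and in the slope. Fgf5, Fgf7, Fgf9 and Fgf10 had a positive difference in all 9 alternatives that tested them, over ranges of 0.17 to 0.77, 0.37 to 0.61, 0.13 to 0.22 and 0.25 to 0.54, with adjusted p between 0.313 and 0.969. Only quantile normalization could have turned these signs. The filter, row choice, variance prior and day term leave the estimate as it is. Leaving out 1 pair cannot turn the sign where every pair is positive. The kept signs thus support nothing. These 4 were the dimmest of the 10 (means within 0.77 of the filter's limit), and with the dimmest 40% of genes left out none was tested, so the counts of FGF genes higher in every pair and without overlap, 4 and 3, were each 0. Leaving out 1 pair gave 4 to 6 for the first count, which then asked for fewer pairs and is more easily met. The share of all genes that meets this looser count was not computed. Without the replicate block (no day term) the all-gene count was 6 in place of 8 and Spry2 had an adjusted p of 0.273.

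The all-gene count of 8 was 0 without a filter on dim genes and 0 after quantile normalization, and ran from 0 to 35 with 1 pair left out (0 without the day 4 or day 9 pair). For the slope it was 130 without the high biopsy of day 6, and otherwise 0. For the difference in slope it ran from 0 to 83, with 83 without the high biopsy of day 9 and 1 without that of day 4. The cause was not tested.

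Signs turned for values near 0. With 1 pair left out the difference ran from -0.043 to 0.048 for Fgf20, -0.059 to 0.049 for Fgfr1, -0.052 to 0.077 for Fgfr2, -0.11 to 0.031 for Fgfr3, -0.0051 to 0.28 for Fgfbp1 and -0.11 to 0.033 for Fgfrl1. Flrt3 was at -0.018 with the mean of its rows. With 1 biopsy left out the slope ran from -0.037 to 0.033 for Fgf18, -0.030 to 0.019 for Fgfr2 and -0.016 to 0.013 for Fgfrl1, which was at -0.00041 after quantile normalization. The difference in slope of Fgf5 ran from -0.56 to 0.013. Dim signal limits Fgf10 in particular. It also limits Fgf5, whose mean in the low group (5.597) lay at the filter's limit (5.596), with 1 low biopsy below it.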
